A study of Arabidopsis thaliana with 21 samples.

Results

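The genes described here are the 200 nuclear genes of Arabidopsis thaliana whose level in sorted cells of the NAC73 reporter line stood furthest above the highest of 5 other reporter lines. Levels are in CPM, a gene's read count divided by the library total and scaled to the usual CPM unit. A nuclear gene was eligible when it had at least 10 CPM in all 4 NAC73 libraries, which held for 6187 of 33323 nuclear genes (33602 genes per file in all). Eligible genes were ranked by the log2 ratio of the mean CPM in NAC73 plus 1 to the highest mean CPM among the other lines plus 1, and the first 200 were kept. Measured levels therefore chose these members, and every value of NAC73 set against another line is a description with no test.

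RNA came from fluorescent protoplasts sorted from roots of seedlings grown for 5 days, and the series describes them as protophloem sieve element cells. The NAC73 line (n = 4) carried pNAC73::H2B-YFP and pS32::erRFP, and the CALS7 line (n = 4) carried pCASL7::H2B-YFP, as the labels spell it, with the same pS32::erRFP. The line labelled NAC57 (n = 3) carried pNAC57::2GFP and pCALS7::H2B-RFP. The CVP2-DBOX line (n = 4) carried pCVP2::DBOX-3YFP, the PEAR1-DBOX line (n = 2) pPEAR1::DBOX-3xYFP, and the PEAR1 line (n = 4) pPEAR1::3xYFP. All samples were thus transgenic reporter plants of 1 age, with 1 line per construct, and no other mutation or treatment is given. The colour used in the sorting gate is not stated, so the promoter, the line, the gate and the handling of a group cannot be told apart. In bulk RNA, fewer cells of a type and less RNA per cell cannot be told apart either. No label says that libraries of a line came from separate plantings, so p-values measure only the spread between these libraries.

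Protophloem sieve elements are the first sugar-conducting cells to mature in a root. In the last steps of maturation each cell loses its nucleus and most organelles, thickens its wall and opens its end walls into callose-lined sieve plates, while it stays alive with the help of neighbouring cells. The transcription factor APL acts above the NAC factors NAC045 and NAC086, and these activate the NEN genes, which encode exonuclease-domain proteins needed for the loss of the nucleus.

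Library totals ran from 23513921 to 36198012 counts, and mitochondrial genes held 0.65% to 0.99% of them in NAC73, against 2.16% to 2.57% in CALS7. The mitochondrial share was 0.37% to 0.65% in NAC57 and 1.05% to 1.46% in PEAR1. Genes with a count were fewest in NAC73, at 16916 to 19644 per library, against 23756 to 27560 in CALS7. They numbered 20416 to 22103 in NAC57, 25088 to 28134 in CVP2-DBOX, 22747 to 28322 in PEAR1-DBOX and 29449 to 30620 in PEAR1. Whether this bears on the low marker sums or the member levels in NAC73 was not tested. Of 19 late sieve element genes, 18 were eligible in NAC73, and their summed level was 27382 to 39485 CPM in NAC73, against 19730 to 23292 CPM in CALS7 and at most 3941 CPM in any library of the other 4 lines. Summed markers of other cell types were low in NAC73: 5.73 to 18.6 CPM over 20 xylem genes, 4.45 to 28.9 CPM over 9 endodermis genes, 0.778 to 7.57 CPM over 9 epidermis and root hair genes, 3.82 to 19.1 CPM over 4 pericycle genes and 0.341 to 41.4 CPM over 3 root cap genes. The 9 companion cell genes summed to 921 to 1123 CPM in NAC73 and 1152 to 1275 CPM in CALS7. Only 1 of the 9 was eligible, and 4 averaged under 1 CPM in NAC73, so the sum does not describe the list as a whole. No member was in any of these 6 lists. The xylem, endodermis, epidermis, pericycle and root cap lists held 0 eligible genes, so the 10 CPM minimum alone fixed that outcome for them. The 12 touch and wounding genes, which respond to handling, summed to 134 to 560 CPM in NAC73 and 634 to 1048 CPM in CALS7. Only 2 of the 12 were eligible, and 0 were members. NAC073, whose promoter names the line, averaged 291 CPM in NAC73 and 152 CPM in CALS7, and ranked 319. NAC057 was lowest in the line labelled NAC57, at 23.3 CPM.

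The members were not confined to the NAC73 line. CALS7 held the highest other mean for 193 of the 200 members, and for 43.9% of all eligible genes. Of the rest, NAC084, RLP12, AT1G19560 and S6K2 were next highest in PEAR1-DBOX, and AT4G18530, AT5G08350 and AT3G27030 in PEAR1. The median of the members' means was 233 CPM in NAC73, against 74.4 CPM in CALS7, 1.70 CPM in NAC57, 1.92 CPM in CVP2-DBOX, 21.7 CPM in PEAR1-DBOX and 15.3 CPM in PEAR1. A mean of 10 CPM or more was reached by 175 members in CALS7, 132 in PEAR1-DBOX, 121 in PEAR1, 48 in NAC57 and 29 in CVP2-DBOX. The label of a set specific to NAC73 thus holds only as a ranking, since the members were shared with CALS7 at a lower level. In NAC57 and CVP2-DBOX, 78 and 64 of the 200 members averaged under 1 CPM. The highest member means there were 354 and 77.7 CPM. The share of all eligible genes under 1 CPM in those lines was not computed.

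**Figure D1:**
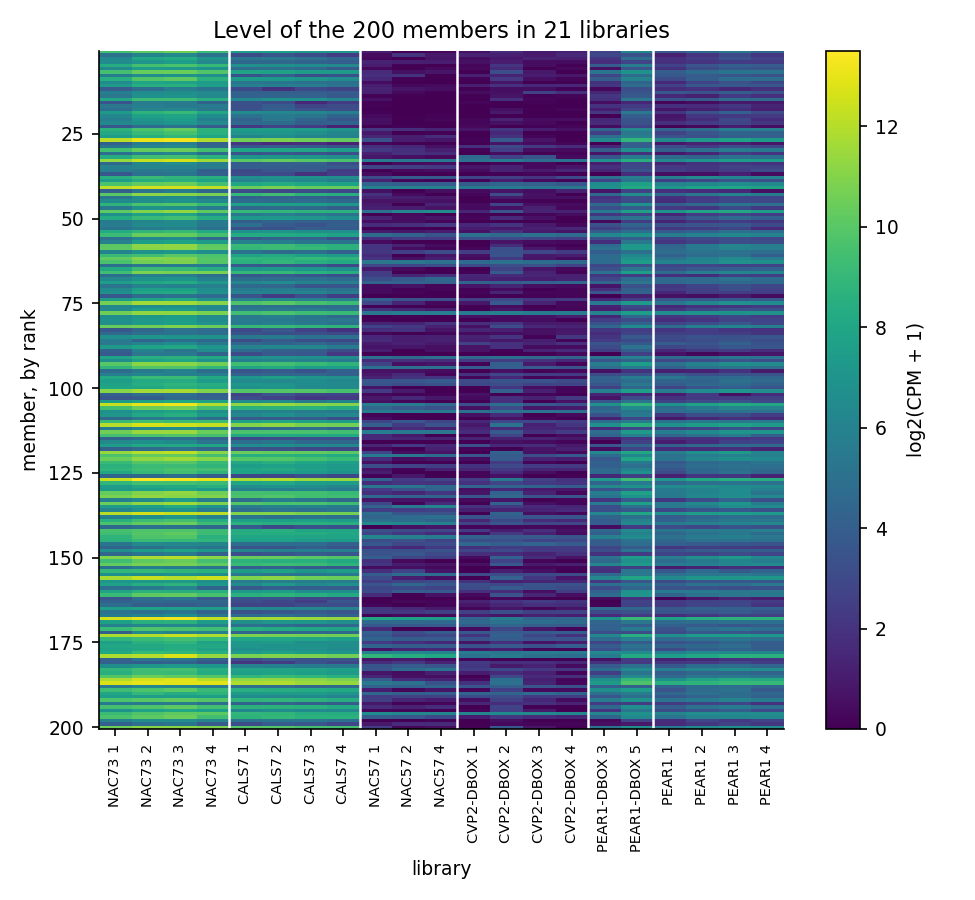
Level of each of the 200 members as log2(CPM + 1), with members in rows by rank and the 21 libraries in columns grouped by reporter line. The NAC73 columns are brightest, the CALS7 columns follow with the same rows bright, and most rows are dark in the NAC57 and CVP2-DBOX columns.

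The step from NAC73 to the next line was moderate. It was 6.05-fold at rank 1 (AT1G61830), 2.92-fold at the median and 2.32-fold at rank 200, and 34 members reached 4-fold. The edge of the set was not a gap, since AT4G00890 at rank 200 had a log2 ratio of 1.21 and AT5G67550, the first gene left out, also had 1.21. AT4G00890 averaged 1939 CPM in NAC73 and 837 CPM in CALS7, and AT5G67550 432 and 186 CPM. The lowest NAC73 library lay above every library of the other lines for 194 members, a state met by 10.7% of eligible genes, and nothing is read from that count because the ranking used the same values. Of the exceptions, NPC4, AT5G04690, AT2G46140 and AT1G08180 overlapped with a CALS7 library, AT1G67820 with PEAR1-DBOX 5, and AT1G35710 with all CALS7 libraries, NAC57 1 and CVP2-DBOX 4. Scaling matters for the size of the step: the median member stood 2.94-fold above CALS7 by library totals and 5.34-fold above it after TMM scaling, which raised the median of all eligible genes by 0.80 on the log2 scale. Under that scaling 191 of the 200 genes were still selected.

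**Figure D2:**
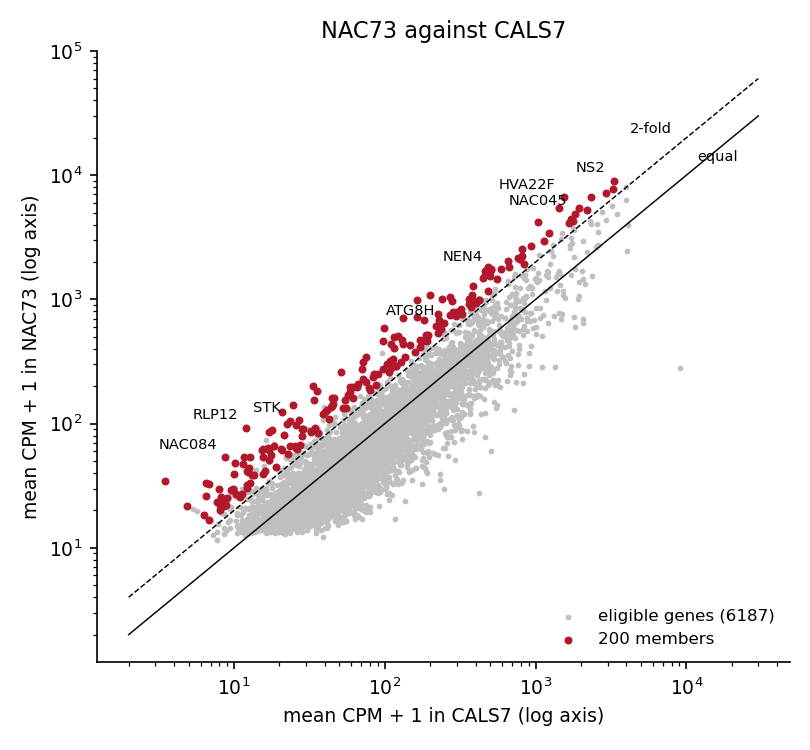
Mean CPM + 1 of the 6187 eligible genes in NAC73 (vertical, log axis) and in CALS7 (horizontal, log axis), n = 4 libraries each, with the 200 members in red. The solid line marks equal levels and the dashed line 2-fold, and members lie above the 2-fold line along the upper edge of the cloud, up to NS2, the member with the highest mean.

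Counts on the members made up a large part of the NAC73 libraries, at 12.2%, 19.4%, 21.2% and 13.5% in libraries 1 to 4, against 6.10%, 6.61%, 5.42% and 4.72% in CALS7 libraries 1 to 4. The share was 0.195% to 0.245% in NAC57, 0.0858% to 0.166% in CVP2-DBOX, 0.433% and 1.51% in PEAR1-DBOX 3 and 5, and 0.504% to 0.976% in PEAR1. The NAC73 and CALS7 shares did not overlap with each other or with those of the remaining lines. Within CVP2-DBOX, library 2 stood apart, with 150 members at 1 CPM or more, against 87 to 102 in the other 3 libraries. The share was uneven among members, with 10 of them holding 38.0% of the summed member CPM in NAC73 and 50 holding 80.6%.

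**Figure D3:**
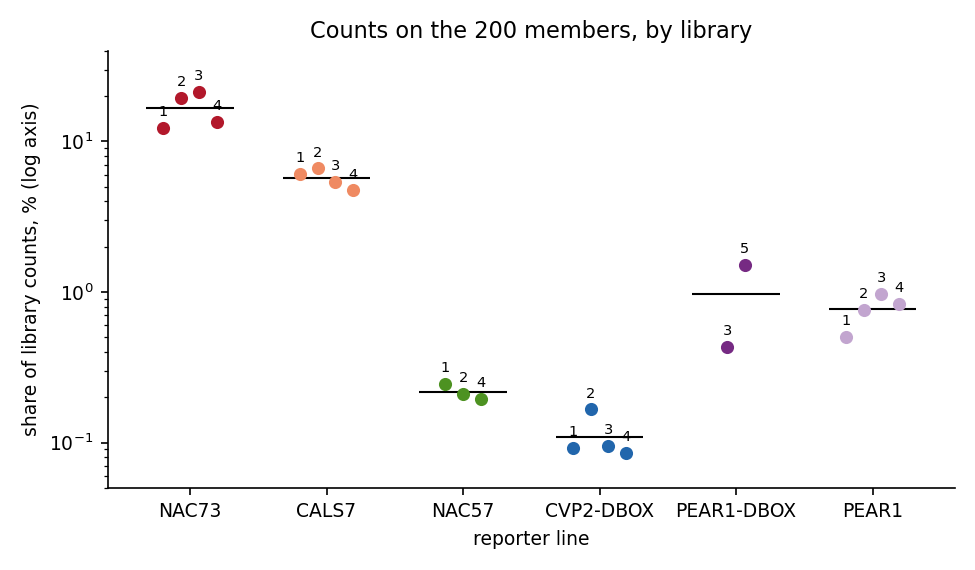
Share of each library's counts that fell on the 200 members, in percent on a log axis, by reporter line; points are libraries with their replicate numbers, and bars are line means. NAC73 libraries lie at 12.2% to 21.2% and CALS7 libraries at 4.72% to 6.61%, while all other libraries lie at or under 1.51%.

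Within NAC73 the members tended to be highest in libraries 3 and 2. In NAC73, library 3 held the highest value for 146 members and library 2 for 47, while library 1 held the lowest for 123 and library 4 for 74. Over all eligible genes, libraries 3 and 2 were highest for 20.2% and 15.1%, and libraries 1 and 4 lowest for 18.8% and 27.7%. In the other lines the library most often highest was CALS7 2 (112 members), NAC57 1 (124), CVP2-DBOX 2 (138), PEAR1-DBOX 5 (197) and PEAR1 3 (143). The shares over all genes were not computed for those lines, so nothing is read from these counts. The median member differed 2.07-fold between its highest and lowest NAC73 library, from 1.07-fold for NIP2 to 5.42-fold for NPC4. The members' median coefficient of variation was 32.4% in NAC73, against 17.5% in CALS7, 53.3% in NAC57, 82.7% in CVP2-DBOX, 78.6% in PEAR1-DBOX and 32.05% in PEAR1. Ranked on libraries 1 and 4 alone the rule kept 155 of the 200 members, and on libraries 2 and 3 alone it kept 172, a split chosen after the values were seen.

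Factors and nucleases of the enucleation pathway were among the members, and their upstream sequences are shown because these genes and SUS5 are the only members from the late sieve element list. NAC045 (rank 137, 3:734892-738629) stood at 4278, 6040, 4839 and 4480 CPM in the NAC73 libraries, against 1991, 2032, 1731 and 1598 CPM in the CALS7 libraries. Its levels were 9.96 to 26.6 CPM in NAC57, 0 to 19.0 CPM in CVP2-DBOX, 75.0 to 251 CPM in PEAR1-DBOX and 119 to 188 CPM in PEAR1. All NAC73 values thus lay above all CALS7 values, and both were far above the rest. The exonuclease gene NEN4 (rank 59) stood at 1126, 2214, 2369 and 1226 CPM in NAC73, against 483, 594, 529 and 404 CPM in CALS7, and at or under 8.67 CPM in every NAC57 and CVP2-DBOX library. NEN1 (rank 132) had 1748, 2534, 2227 and 1994 CPM in NAC73, against 857, 918, 688 and 669 CPM in CALS7, and 18.5 to 23.8 CPM in NAC57. For both genes the order was NAC73 above CALS7 in every library, with PEAR1 and PEAR1-DBOX between CALS7 and the 2 lowest lines. NEN2, another exonuclease of that pathway, lay just outside the set at rank 231, with a mean of 2288 CPM in NAC73 and 1053 CPM in CALS7. NAC086, the partner of NAC045, ranked 642, with 2931 and 2066 CPM.

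The 250 bases before the annotated start of these 4 genes, read from the RefSeq TAIR10.1 genome 5′ to 3′ on the strand of the gene, carry matches to the NAC core CACG (either strand) in capitals. They lie at chr3:738630-738879 (minus strand) for NAC045, chr4:18475805-18476054 (minus) for NEN4, chr5:2452775-2453024 (plus) for NEN1 and chr5:14717891-14718140 (plus) for SUS5.
NAC045: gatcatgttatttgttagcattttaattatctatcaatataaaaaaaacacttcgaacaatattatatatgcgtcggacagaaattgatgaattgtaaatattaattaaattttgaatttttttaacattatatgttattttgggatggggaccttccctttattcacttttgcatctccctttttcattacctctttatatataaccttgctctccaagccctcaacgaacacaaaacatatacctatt
NEN4: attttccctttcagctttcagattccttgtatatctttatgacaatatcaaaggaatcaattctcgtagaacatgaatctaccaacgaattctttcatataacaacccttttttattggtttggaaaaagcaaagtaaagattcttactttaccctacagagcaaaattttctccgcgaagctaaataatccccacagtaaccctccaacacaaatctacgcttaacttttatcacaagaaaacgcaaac
NEN1: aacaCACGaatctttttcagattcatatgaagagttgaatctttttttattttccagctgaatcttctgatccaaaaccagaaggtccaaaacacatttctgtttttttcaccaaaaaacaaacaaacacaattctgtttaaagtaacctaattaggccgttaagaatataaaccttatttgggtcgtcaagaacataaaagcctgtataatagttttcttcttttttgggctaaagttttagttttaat
SUS5: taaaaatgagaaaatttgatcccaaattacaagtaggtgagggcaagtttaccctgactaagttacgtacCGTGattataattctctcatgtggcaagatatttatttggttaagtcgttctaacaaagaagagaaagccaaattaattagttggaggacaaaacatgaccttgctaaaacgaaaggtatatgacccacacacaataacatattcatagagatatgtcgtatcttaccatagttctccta
NEN1 and SUS5 had 1 match each, and the NAC045 and NEN4 windows had no such match. Over all members 43.0% of such windows held CACG, against 45.6% of the windows of 27443 protein-coding genes. The W-box TTGAC was in 35.5% of member windows, against 44.9% of protein-coding windows. The TATA box TATAAA was in 48.5%, against 47.3%, the G-box CACGTG, which contains CACG, in 6.0%, against 6.49%, and the heat shock element GAANNTTC in 12.0%, against 9.55%. The site II element TGGGCC was in 6.0% of member windows, against 13.7% of protein-coding windows and 19.8% of eligible ones. The telo-box AAACCCTA was in 1.5%, against 4.49%, and the DOF core AAAG in 98.5%, against 98.0%. All motifs were searched on both strands, and a match is a run of letters, not a bound site.

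The other regulators among the 9 transcription factor members were lower. NAC084, at rank 2, stood at 31.3, 64.9, 81.0 and 34.1 CPM in NAC73, against 7.61, 11.5, 7.84 and 4.18 CPM in CALS7 and 6.58 and 9.25 CPM in PEAR1-DBOX. WRKY69 had 185, 284, 283 and 252 CPM in NAC73, against 91.6, 106, 87.9 and 72.2 CPM in CALS7. STK, a MADS-box gene known from ovule identity, had 53.9, 130, 179 and 55.8 CPM in NAC73, against 17.7, 40.5, 19.9 and 11.5 CPM in CALS7. The NAC73 values of these 3 lay above their CALS7 values, as for nearly all members by the choice of the set, and nothing is read from that. STK is reported with a reservation given with the neighbouring genes, as are NAC024, MYB19 and SHP2, a MADS-box gene of fruit and carpel development. The PLATZ factors AT2G27930 and AT1G43000 averaged 261 and 26.3 CPM in NAC73, and 106 and 9.34 CPM in CALS7.

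Genes of protein turnover took a share of the members close to their share of eligible genes. The keyword class of ubiquitin, F-box, RING and U-box proteins held 14 members (7.0% of members, 5.2% of eligible genes), which averaged 24.8 to 1545 CPM in NAC73 and included ATG8D and ATG8H. NPL41, outside that keyword class, encodes an NPL4-like protein, a cofactor of the CDC48 machine that pulls ubiquitin-tagged proteins out of membranes and complexes. It stood at 4650, 6207, 6073 and 4803 CPM in NAC73, against 1425, 1716, 1288 and 1270 CPM in CALS7 and 59.6 to 61.3 CPM in NAC57. The RING protein gene AT1G60360 (rank 7) had 708, 1334, 1397 and 925 CPM in NAC73, against 237, 218, 177 and 162 CPM in CALS7. CUL3, a scaffold of cullin ubiquitin ligases, was a member near the edge of the ranking, with 596, 884, 1125 and 1115 CPM in NAC73, against 467, 464, 340 and 328 CPM in CALS7. CUL3 kept 68.6 to 93.8 CPM in every NAC57 and CVP2-DBOX library, while AT1G60360 averaged 1.17 CPM in NAC57 and 2.35 CPM in CVP2-DBOX.

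Of the 15 autophagy genes, 12 were eligible and 2 were members, both ATG8 genes, whose products coat the forming autophagosome. ATG8H had 447, 839, 898 and 392 CPM in NAC73, against 251, 254, 237 and 235 CPM in CALS7 and 10.6 to 17.3 CPM in CVP2-DBOX. ATG8D had 56.4, 94.6, 133 and 55.3 CPM in NAC73, against 34.6, 29.3, 32.8 and 28.4 CPM in CALS7, and 20.0 to 30.9 CPM in NAC57, so that CALS7 and NAC57 overlapped. Among 5 protease members the aspartyl protease AT4G33490 was the most abundant, with a mean of 4126 CPM in NAC73, and the metacaspase MC3, the matrixin AT4G16640 and the subtilase SBT3.12 followed. MC3 had 767, 894, 881 and 610 CPM in NAC73, against 319, 378, 241 and 254 CPM in CALS7. AT4G16640 (rank 15) had 274, 603, 610 and 368 CPM in NAC73, against 78.4, 118, 116 and 70.1 CPM in CALS7. SBT3.12 (rank 13) had 55.7, 93.7, 105 and 84.2 CPM in NAC73, against 17.1, 16.7, 15.9 and 14.1 CPM in CALS7. None of the 8 genes of a developmental cell death list was a member, and only 1 was eligible. That gene, PASPA3, an aspartic protease of dying cells, averaged 246 CPM in NAC73 and 122 CPM in CALS7 (rank 280).

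The glycosyl hydrolase and transferase keyword class held 10 members (5.0% of members, 1.73% of eligible genes). By product name it includes the O-fucosyltransferase AT5G63390 and the N-acetylglucosaminyltransferases AT2G13290 and AT1G68390. SUS5, a sucrose synthase of phloem that splits sucrose for callose and energy, stood at 3243, 5009, 4021 and 5597 CPM in NAC73, against 1893, 2250, 1455 and 1319 CPM in CALS7. It had 0.492 to 7.73 CPM in NAC57, 0.0278 to 17.9 CPM in CVP2-DBOX, and 75.9 to 238 CPM over both PEAR1 promoter lines. XTH10, which remodels xyloglucan in walls, had 2224, 3135, 3469 and 1957 CPM in NAC73, against 996, 987, 956 and 760 CPM in CALS7. The alpha-amylase gene AMY1 and the beta-galactosidase gene BGAL14 averaged 37.8 and 28.9 CPM in NAC73, and 12.2 and 6.91 CPM in CALS7. Pectin enzymes, grouped after their values were seen, gave 5 members. The highest ranked was QRT3, a polygalacturonase gene known from pollen separation, with 86.2, 186, 163 and 122 CPM in NAC73, against 26.9, 31.0, 23.3 and 13.0 CPM in CALS7.

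Membrane and lipid genes are gathered here after their values were seen. HVA22F, of a family that shapes the endoplasmic reticulum, stood at 4437, 8530, 9900 and 3796 CPM in NAC73, against 1593, 1853, 1483 and 1244 CPM in CALS7. The reticulons AT3G18260 and AT1G68230, also membrane-curving proteins, averaged 3422 and 472 CPM in NAC73, and 1230 and 171 CPM in CALS7. Of 5 eligible remorins, plasma membrane scaffold proteins, 3 were members (AT1G69325, AT1G13920 and AT5G61280), which averaged 702, 1767 and 2976 CPM in NAC73, and 132, 592 and 1141 CPM in CALS7. The caleosin CLO4, a calcium-binding protein of lipid droplets, had 1124, 1988, 2526 and 1158 CPM in NAC73, against 534, 491, 431 and 390 CPM in CALS7. Among lipases, PLDALPHA3 had 668, 1814, 1688 and 1754 CPM in NAC73, against 517, 527, 398 and 342 CPM in CALS7. NPC4 had 16.4, 59.4, 35.0 and 88.8 CPM in NAC73, against 25.3, 15.8, 15.1 and 7.83 CPM in CALS7, so its ranges overlapped. The ZIP metal transporter family gene AT3G20870 had 2603, 4833, 6245 and 3024 CPM in NAC73, against 1058, 1276, 1010 and 801 CPM in CALS7. The copper transport family gene AT3G25855 (rank 3) had 78.3, 275, 320 and 125 CPM in NAC73, against 37.3, 41.9, 30.1 and 20.3 CPM in CALS7.

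Genes known from virus movement and defence in phloem were members as well. RTM2 and RTM3 restrict the long-distance movement of a potyvirus in Arabidopsis, and RTM2 encodes a protein of the small heat shock type with a membrane anchor. RTM2 had 1666, 3211, 3186 and 2105 CPM in NAC73, against 860, 1040, 751 and 603 CPM in CALS7. RTM3 had 1398, 2417, 3054 and 2127 CPM in NAC73, against 976, 937, 765 and 573 CPM in CALS7. All 4 members of the chaperone class, RTM2 among them, were HSP20-like proteins, and the most abundant, AT2G27140, had 3622, 6069, 7440 and 3975 CPM in NAC73, against 2350, 2555, 2231 and 1675 CPM in CALS7. The 8 genes of the heat shock list, of which only 1 was eligible, gave no member. They summed to 40.2 to 601 CPM in NAC73 and 526 to 755 CPM in CALS7. The phloem lectins PP2-A9 and PP2-A14 averaged 197 and 28.4 CPM in NAC73, and 64.2 and 8.57 CPM in CALS7. THH1, related to genes that tobamoviruses need to multiply, averaged 575 CPM in NAC73 and 234 CPM in CALS7.

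Among 13 members of the kinase class, CPK29, a calcium-dependent protein kinase, was the most abundant, with 4029, 6682, 5981 and 5065 CPM in NAC73, against 2042, 2430, 1694 and 1567 CPM in CALS7. HT1 (rank 10), a kinase known from stomatal responses to CO2, had 93.6, 233, 221 and 178 CPM in NAC73, against 37.9, 37.3, 33.2 and 29.6 CPM in CALS7. The kinase keyword class took a share of the members (6.5%) close to its share of eligible genes (5.96%). The receptor-like protein RLP12 (rank 8) had 52.8, 97.7, 121 and 95.6 CPM in NAC73, against 9.70, 16.4, 8.48 and 9.74 CPM in CALS7 and 6.11 and 26.7 CPM in PEAR1-DBOX.

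The highest member was NS2, an asparaginyl-tRNA synthetase, with 5402, 11608, 10660 and 8476 CPM in NAC73, against 3630, 4163, 2803 and 2605 CPM in CALS7. The uncharacterised AT1G63310 followed AT2G46630 and had 6231, 8098, 9815 and 4854 CPM in NAC73, against 2953, 3248, 2848 and 2624 CPM in CALS7. Per kilobase of exon the order of levels changed, with AT1G63310 first at 8549 CPM per kb in NAC73, the DUF3339 gene AT3G01950 at 7899, HVA22F at 7114 and NS2 at 3493. AT1G61830, a transcribed pseudogene in RefSeq and the member of rank 1, had 698, 1137, 1501 and 616 CPM in NAC73, against a mean of 163 ± 25.3 CPM in CALS7 (SD, n = 4). In all 194 members were protein coding. No member belonged to the P450 or to the actin, kinesin and tubulin keyword class, which held 0.13% and 0.82% of eligible genes. Nothing is read from that absence. For 37 members the product name held the words uncharacterised, hypothetical or unknown function, or a DUF (domain of unknown function). Some of these also held another name, such as AT3G01950, named a peroxidase. Families with several members, grouped after the values were seen, were the Cys/His-rich C1 domain proteins (6 of 11 eligible), the DUF3339 proteins (4 of 6) and the ankyrin repeat proteins (4 of 22). Reads from near-identical copies may be split between such family members. The DUF3339 members AT5G40970 and AT5G40980 also overlap on opposite strands, so their levels carry the uncertainty given with the neighbouring genes.

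**Figure D4:**
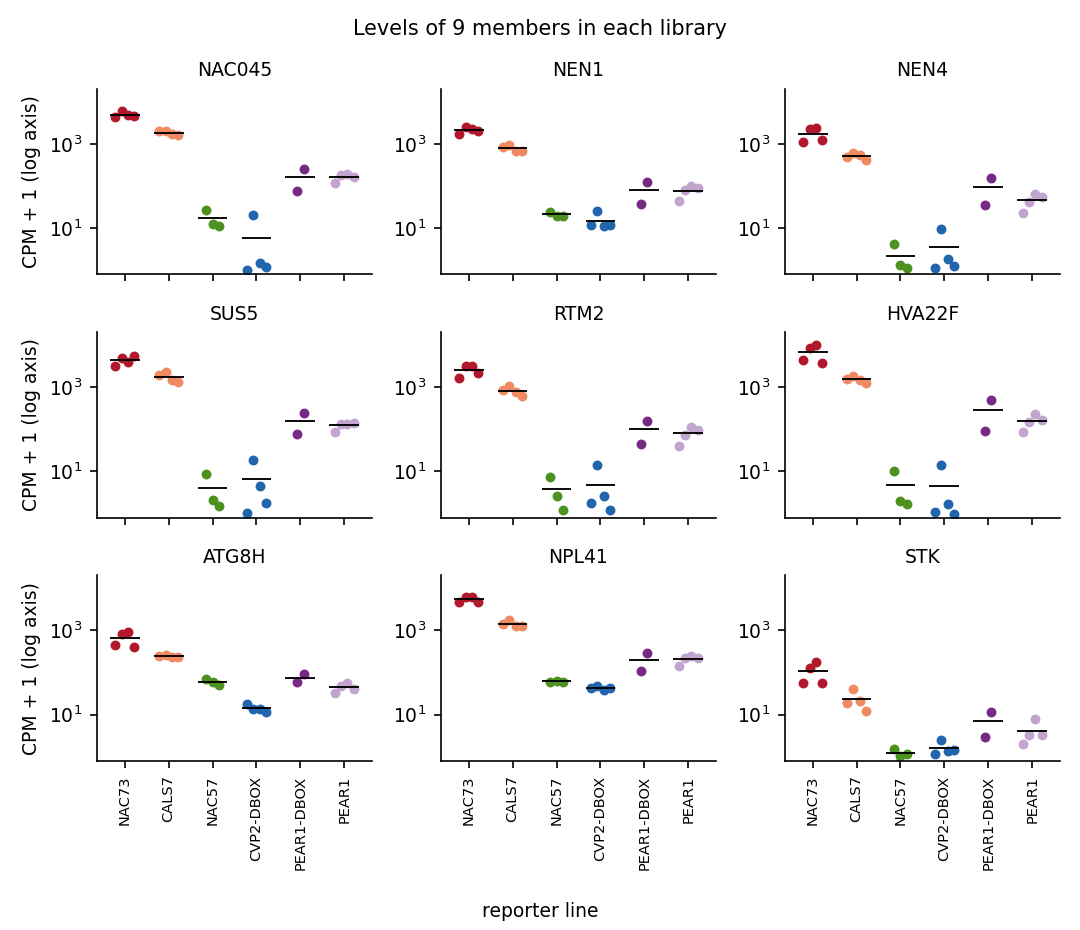
CPM + 1 of 9 members in every library, on a log axis, by reporter line; points are libraries and bars are line means. In all 9 panels NAC73 is highest and CALS7 next; the NAC57 and CVP2-DBOX points lie at or under 17.9 CPM for SUS5, RTM2, HVA22F, NEN4 and STK, and at 37.7 CPM or more for NPL41.

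Of the 200 members, 30 lay next to another member on the chromosome and formed 17 adjacent pairs, of which 10 were on the same strand, 6 converged and 1 diverged, with a median gap of 124 bp and 5 overlaps (TAIR10.1). In 8 pairs the lower gene had under 10% of the higher gene's mean CPM in NAC73. STK (4:6236375-6241281, minus) overlapped the end of AT4G09950 (4:6234671-6236560, plus) by 186 bp and had 4.91% of its level, 105 against 2133 CPM in NAC73. In NAC73, MYB19 averaged 25.0 CPM and ended 143 bp from the end of AT5G52270, at 345 CPM. NAC024 averaged 31.6 CPM and lay 295 bp downstream of AT1G60360, at 1091 CPM, on the same strand. SHP2 (21.2 CPM) lay 1568 bp from the start of HVA22F (6666 CPM), in the opposite direction. As a part of the neighbour's level, MYB19 had 7.23% in NAC73 and 7.43% in CALS7, NAC024 2.89% and 2.95%, SHP2 0.318% and 0.505%, and STK 4.91% and 2.82%. The other 4 such genes were AT5G18980, which lay 124 bp from AT5G18970 and had 7.42% of its level in NAC73 and 8.08% in CALS7, AT5G38060 and AT5G38080, which lay 10 and 25 bp from AT5G38070 with 5.91% and 7.84% in NAC73 and 6.33% and 5.94% in CALS7, and AT5G04690, which lay 680 bp from AT5G04680 with 6.73% in NAC73 and 5.66% in CALS7. Strand is not stated for the counting. Of these 8 genes STK alone overlapped its neighbour, on the opposite strand, so its level is uncertain for that reason. NAC024, AT5G18980, AT5G38060 and AT5G04690 lay on the strand of the neighbour without overlap, where the strand setting makes no difference. MYB19, SHP2 and AT5G38080 lay on the opposite strand without overlap. All but STK are given with reservation only because a far more abundant gene lay nearby. As for STK, the unstated strand makes levels uncertain in pairs above 10% in which a gene lay wholly within its neighbour on the opposite strand. AT4G16410 lay within AT4G16400 and had 12.8% of its level in NAC73. AT5G40980 lay within AT5G40970, and AT5G40970 had 11.4% of the level of AT5G40980 in NAC73. Whether reads of the abundant neighbour add to the levels of any of these genes was not tested.

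The ranking compared NAC73 with the highest other line, so how the members differed among the other 5 lines was tested in 4 comparisons that left out the NAC73 libraries (edgeR, 26101 genes, all 200 members tested). The levels of those lines did enter the ranking through the highest mean. The 4 comparisons also share libraries of CALS7, CVP2-DBOX and PEAR1, so their results are given side by side and not as separate support. In CALS7 against PEAR1, 173 members rose and 0 fell, while 16.6% of all genes tested rose and 30.3% fell. The median log2 fold change was 2.87 over members and -0.32 over all genes. The 10 most abundant members all rose, with a median of 3.67. NAC045 averaged 1838 ± 208 CPM in CALS7 and 163 ± 31.7 CPM in PEAR1 (SD, n = 4 each), a log2 fold change of 3.82 (SE 1.2, edgeR adjusted p = 0.016). NEN1 rose with a log2 fold change of 3.67 (SE 0.40, edgeR adjusted p = 2.19e-06), NEN4 with 3.78 (SE 1.06, edgeR adjusted p = 0.0086) and SUS5 with 4.15 (SE 1.14, edgeR adjusted p = 0.0072). The smallest adjusted p among members belonged to the RING protein gene AT1G45180, with a log2 fold change of 2.98 (SE 0.19, edgeR adjusted p = 4.7e-09), and ATG8H, THH1 and the rhamnogalacturonate lyase AT2G22620 also rose. Other lists moved in this comparison too. Of 12 touch and wounding genes 10 fell (median log2 fold change -2.70), with sums of 634 to 1048 CPM in CALS7 and 2394 to 3074 CPM in PEAR1. Of 4 pericycle genes 3 fell (median -3.19, sums of 5.37 to 30.4 CPM in CALS7 and 259 to 644 CPM in PEAR1), and of 20 xylem genes 3 fell (median -1.86, sums of 23.4 to 75.9 CPM in CALS7 and 48.9 to 273 CPM in PEAR1). Their part in the result was not tested.

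The 27 members that did not pass in CALS7 against PEAR1 included S6K2, GSTZ1, AT5G08350, AT4G18530 and AT3G27030, which had similar means in both lines, such as 96.6 CPM in CALS7 and 91.3 CPM in PEAR1 for S6K2 and 57.6 and 72.0 CPM for AT3G27030. Others had a sizeable fold with a wide error of the fit, such as PLDALPHA3 with a log2 fold change of 3.29 (SE 1.29, edgeR adjusted p = 0.050, just over the threshold) and NAC084 with 1.41 (SE 0.58, edgeR adjusted p = 0.056). PLDALPHA3 averaged 446 ± 90.6 CPM in CALS7 and 57.0 ± 21.4 CPM in PEAR1 (SD, n = 4 each). The fit estimated the spread over all 5 lines, so its SE is not the scatter within these 2 lines. PLDALPHA3 and NAC084 passed with median-of-ratios factors, with only the 2 lines in the fit and with DESeq2, and NAC084 passed also without CALS7 4 or PEAR1 3, with a log2 fold change of 1.72 or 1.85. By keywords in product names, 14 of 14 members of the ubiquitin class rose, 11 of 13 of the kinase class and 9 of 10 of the glycosyl class. So did 7 of 9 in the transcription factor class, 5 of 6 in the nuclease class, 4 of 4 HSP20-like proteins and 2 of 4 in the lipase class. Over all members 86.5% rose, and nothing is read from the classes. The kinase class includes a cyclin-dependent kinase inhibitor (AT1G08180), the nuclease class a helicase (RECQSIM), and IRE1A is in both. With median-of-ratios scaling all 13 members of the kinase class and 4 of the lipase class rose. At an unadjusted p of 0.05 edgeR also gave 0 members lower, and DESeq2 gave 0.

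In CALS7 against CVP2-DBOX, 195 members rose and 0 fell, while 19.5% of all genes tested rose and 28.1% fell. The median log2 fold change was 5.94 over members and 0.11 over all genes. ATG8H averaged 244 ± 9.52 CPM in CALS7 and 13.2 ± 2.89 CPM in CVP2-DBOX (SD, n = 4 each), a log2 fold change of 4.30 (SE 0.22, edgeR adjusted p = 2.98e-10). NPL41 rose with a log2 fold change of 5.2 (SE 0.28, edgeR adjusted p = 5.33e-10), and THH1 and AT2G38480 followed. AT3G05620, of the pectin methylesterase inhibitor superfamily, had 0 counts in all CVP2-DBOX libraries and was at least 1537-fold higher in CALS7, taking 3 counts over the CVP2-DBOX libraries as the floor. Members that did not pass were AT3G51870, AT1G67820, BST1, AT5G63390 and AT1G19560. Of the 9 epidermis and root hair genes 5 rose (median log2 fold change 4.89), with sums of 2.53 to 290 CPM in CALS7 and 2.51 to 9.97 CPM in CVP2-DBOX. Of 20 xylem genes 5 rose and 1 fell (median 1.62), of 12 touch and wounding genes 3 rose and 1 fell (median 0.42), of 8 heat shock genes 6 rose (median 1.28), and no pericycle gene passed. The part of these lists in the result was not tested. Without CVP2-DBOX 2, the library with more member counts, all but 4 members rose and the median was 6.79. At an unadjusted p of 0.05 edgeR and DESeq2 each gave 0 members lower.

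In NAC57 against CALS7, all but 4 of the 200 members fell and 0 rose, while 29.9% of all genes tested fell and 30.7% rose. The median log2 fold change was -5.63 over members and -0.16 over all genes. The line labelled NAC57 carries a CALS7 promoter reporter as its second transgene. AT5G18980, an ARM repeat protein gene, is given with the reservation stated above for its abundant neighbour AT5G18970. It averaged 7.66 ± 1.71 CPM in NAC57 (SD, n = 3) and 188 ± 23.8 CPM in CALS7 (SD, n = 4). The log2 fold change of AT5G18980 was -4.72 (SE 0.31, edgeR adjusted p = 1.45e-08). SUS5 fell by 9.25 on the log2 scale (SE 1.65, edgeR adjusted p = 0.00031), NEN4 by 8.82 (SE 1.56, edgeR adjusted p = 0.00029) and NAC045 by 6.95 (SE 1.59, edgeR adjusted p = 0.0021). AT1G45180, AT3G06270 and NPL41 were also among the 4 smallest adjusted p. The 6 members with 0 counts in all NAC57 libraries, SHP2, AT5G04690, AT2G40050, AT5G38080, AT5G39480 and AT4G00350, were at least 218-fold lower there, with 3 counts over the NAC57 libraries as the floor. Of these, SHP2, AT5G04690 and AT5G38080 have the reservation given above with the neighbouring genes. The members' median was -5.63 also with these at their bounds. ATG8D, AT3G27030, AT5G64480 and AT5G46620 did not pass. ATG8D averaged 25.6 CPM in NAC57 and 31.3 CPM in CALS7, a log2 fold change of -0.38 (SE 0.24, edgeR adjusted p = 0.18), and it fell by 0.88 with median-of-ratios factors, 0.65 with only the 2 lines in the fit and 0.88 with DESeq2, all past the threshold. Of 20 xylem genes 9 fell (median -2.60, sums of 11.6 to 14.6 CPM in NAC57 and 23.4 to 75.9 CPM in CALS7), of 9 epidermis genes 2 fell, and of 4 pericycle genes 1 rose. Of 12 touch and wounding genes 1 fell (median -0.45), and 6 fell with median-of-ratios factors. The part of these lists in the result was not tested. At an unadjusted p of 0.05 edgeR and DESeq2 each gave 0 members higher.

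In CVP2-DBOX against PEAR1, 167 members fell and 2 rose, while 19.0% of all genes tested fell and 20.7% rose. The median log2 fold change was -3.03 over members and -0.19 over all genes. AT5G05140, a TFIIS family gene, averaged 5.23 ± 1.65 CPM in CVP2-DBOX and 66.5 ± 10.4 CPM in PEAR1 (SD, n = 4 each), a log2 fold change of -3.45 (SE 0.26, edgeR adjusted p = 2.56e-07). AT5G08350 fell by 5.76 on the log2 scale (SE 0.48, edgeR adjusted p = 6.29e-07), and AT5G01610 and GSTZ1 fell by 4.16 and 2.16. These last 3 had passed no test between CALS7 and PEAR1. The leucine-rich repeat kinase AT1G35710 averaged 14 CPM in CVP2-DBOX and 10.3 CPM in PEAR1, a log2 fold change of 0.65 (SE 0.21, edgeR adjusted p = 0.019), and the mitochondrial carrier AT3G51870 18.1 and 13.0 CPM, with 0.69 (SE 0.27, edgeR adjusted p = 0.0498). Of 12 touch and wounding genes 10 fell (median -2.80), with sums of 294 to 569 CPM in CVP2-DBOX and 2394 to 3074 CPM in PEAR1. Of 20 xylem genes 13 fell (median -3.33, sums of 12.9 to 45.0 CPM in CVP2-DBOX and 48.9 to 273 CPM in PEAR1), and all 4 pericycle genes fell (median -4.01, sums of 7.66 to 31.9 CPM in CVP2-DBOX and 259 to 644 CPM in PEAR1). Their part in the result was not tested. The calls for AT1G35710 and AT3G51870 were fragile: AT3G51870 was lost without CVP2-DBOX 1, 2 or 3 or PEAR1 2, 3 or 4, and AT1G35710 without CVP2-DBOX 4 or PEAR1 1. Without CVP2-DBOX 2, 162 members fell and the members' median was -3.92. CUL3, AT1G45180 and RECQSIM were among the 31 members that did not pass, with means of 77.7, 21 and 27.1 CPM in CVP2-DBOX, and 88.0, 24.9 and 29.2 CPM in PEAR1.

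**Figure D5:**
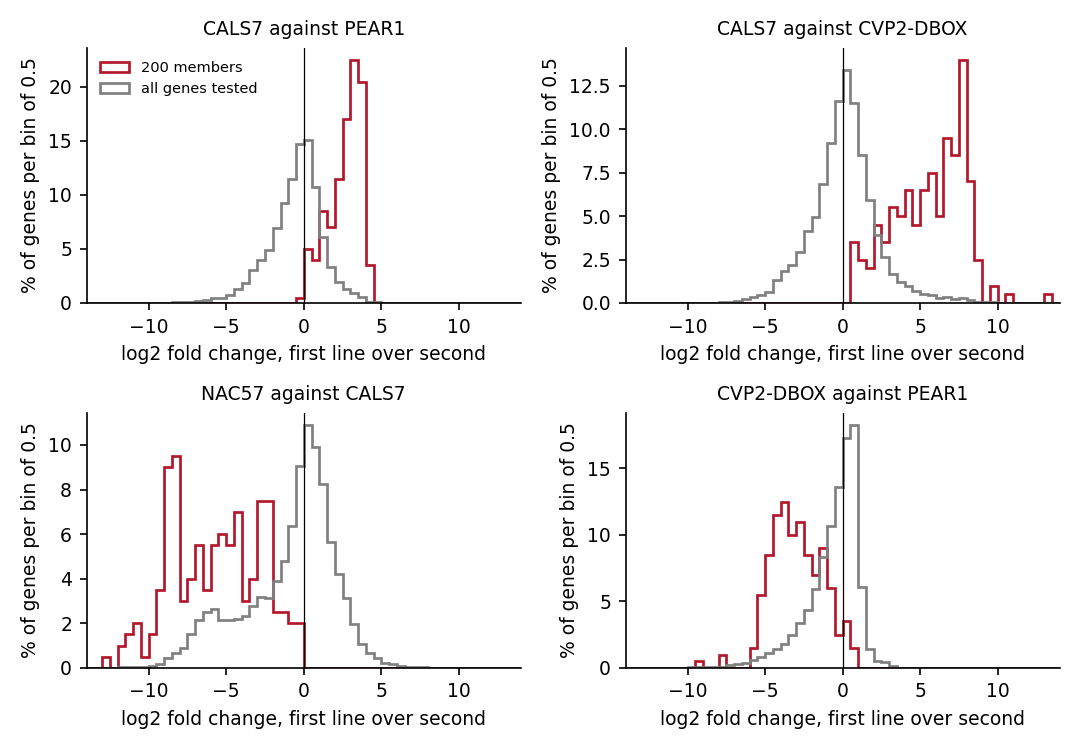
Distribution of log2 fold changes (first line over second) in the 4 comparisons of the lines other than NAC73, for the 200 members (red) and all 26101 genes tested (grey), as percent of genes per bin of 0.5. The members lie right of 0 in both CALS7 comparisons (medians 2.87 and 5.94) and left of 0 in NAC57 against CALS7 (-5.63) and CVP2-DBOX against PEAR1 (-3.03).

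The scale of these tests moved with the scaling factors. With median-of-ratios factors in place of TMM the median of all genes shifted by 0.32, 0.42, -0.50 and -0.10 in the 4 comparisons, in the order given above. The numbers of all genes higher and lower were then 5585 and 6513 in place of 4322 and 7912 in CALS7 against PEAR1, 6970 and 5832 in place of 5087 and 7328 in CALS7 against CVP2-DBOX, and 5556 and 10485 in place of 8013 and 7811 in NAC57 against CALS7. The members' medians were then 3.17, 6.34, -6.11 and -3.12.

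The late sieve element list as a whole, which includes the 4 listed members, gives their setting. It also holds CALS7 and S32, whose promoters drive the reporters of the CALS7 line. Of the 19 listed genes 18 rose and 0 fell in CALS7 against PEAR1, and 17 rose and 1 fell in CALS7 against CVP2-DBOX. In NAC57 against CALS7, 14 fell and 1 rose, and in CVP2-DBOX against PEAR1, 11 fell and 6 rose. The gene that rose in NAC57 was CHER1, a choline transporter of sieve plate formation, with a mean of 172 CPM in NAC57 and 48.5 CPM in CALS7. Not all late genes had their highest mean in NAC73, since 7 of the 19 did not: CALS7 itself averaged 2447 CPM in NAC73 and 4024 CPM in CALS7, and NAC020 97.7 CPM in NAC73, 377 CPM in NAC57 and 305 CPM in CALS7. SUS6, the companion of SUS5, had the highest mean of the list in NAC73, 8072 CPM, against 3954 CPM in CALS7, and ranked 269. Of the 15 autophagy genes, 11 rose and 1 fell in CALS7 against PEAR1, and 6 fell and 2 rose in NAC57 against CALS7, where 11 fell and 2 rose with median-of-ratios factors. Of 16 early protophloem genes 11 were eligible and 0 were members, and all 16 had a lower mean in NAC73 than in the highest other line.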

How the data were processed

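Single-end RNA-seq of amplified cDNA from sorted root protoplasts was deposited for 21 libraries, as raw read counts per gene that the authors made from their alignments. The submitters' processing notes name Bowtie2, featureCounts, edgeR and the TAIR10 build, without versions. Neither the strand setting nor the handling of reads with several matches is stated there. Groups were taken from the sample titles and no library was left out.

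CPM was computed from each file's total. The members and gene lists were chosen with earlier results of these data known. Comparisons among the 5 lines other than NAC73 were fitted to the deposited counts of 17 libraries with edgeR 4.0.16 (R 4.3.3, quasi-likelihood test, TMM scaling, filterByExpr, 26101 genes), with Benjamini-Hochberg adjustment over all genes and a threshold of 0.05. DESeq2 1.42.0, other scaling and filters, all 21 libraries, the compared lines alone, a replicate block and leaving out each library were tried. Simulated counts for CALS7 against PEAR1 (22049 genes, 200 changed) gave back 0% of 2-fold, 49.3% of 4-fold and 96.6% of 8-fold changes, with 2.15% of calls false. All genes were simulated with 1 common spread (dispersion 0.26) and no other difference between lines, unlike the data. Real calls included smaller changes, such as ATG8D at 1.71-fold in CALS7 against PEAR1 (edgeR adjusted p = 0.0090). The simulated rates therefore do not carry over to the tests reported here. SE is the absolute log2 fold change divided by the square root of the F value of its test, with the spread estimated over all 5 lines. SDs are between libraries of a line. Floors for members with 0 counts cover counting error only.

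Genes were named by rank, abundance, list membership, smallest adjusted p, product class and neighbouring position; other genes in the text were chosen after their values were seen. Product names, biotypes and coordinates came from RefSeq for TAIR10.1, in which 32835 of 33602 locus codes matched. In place of a promoter table, the 250 bases before each annotated gene start were read from that genome.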

Additional observations from a re-analysis of the deposited data

Results flagged for a closer look

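Among groups of 4 libraries, 161 were scanned over 57 genes and the member share, and 15 held a library far from the other 3 by Dixon's criterion, which chance meets in about 1 of 20 groups. In NAC73, PLDALPHA3 was low in library 1, at 668 CPM against 1688 to 1814 CPM in the others, and AT2G44280 was high in library 3, at 319 CPM against 278 to 280 CPM. In CALS7, library 2 was high for RLP12 (16.4 CPM, others 8.48 to 9.74 CPM) and AT5G38080 (16.1 CPM, others 8.06 to 9.37 CPM). XTH10 was low in CALS7 4, at 760 CPM against 956 to 996 CPM, and AT5G67550 was high in CALS7 1, at 202 CPM against 179 to 182 CPM.

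CVP2-DBOX 2 accounted for 7 of these cases. Its member share was 0.166%, against 0.0858% to 0.0944% in the other CVP2-DBOX libraries. NS2 had 48.5 CPM there, against 2.93 to 5.06 CPM, and AT1G63310 had 49.2 CPM, against 20.5 to 20.9 CPM. AT5G18970 had 28.9 CPM (others 8.93 to 12.2 CPM) and NEN1 had 24.0 CPM (others 10.1 to 11.1 CPM). ATG8D had 14.3 CPM (others 10.5 to 10.7 CPM) and THH1 had 14.1 CPM (others 10.5 to 10.9 CPM). In PEAR1, library 1 was low for AT2G01275, at 5.01 CPM against 11.2 to 12.2 CPM, and for WRKY69, at 17.2 CPM against 24.5 to 25.7 CPM.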

How the results depend on the processing

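The ranking kept 191 of the 200 members with TMM scaling, 195 and 190 with pseudocounts of 0.1 and 5, 189 and 173 with minima of 5 and 20 CPM, 184 with medians per line, and 184 to 200 with any 1 library left out. The member share of NAC73 counts averaged 16.6%, 15.0% to 18.0% with 1 NAC73 library left out (chosen after seeing the data), and 16.7% of nuclear counts. Members higher in CVP2-DBOX than in PEAR1 numbered 2, and 1 with median-of-ratios factors, 1 with no filter, 1 with DESeq2, 0 with all 21 libraries in the fit, and 1 to 2 with 1 library left out; the count was 1 without any single library of either line except CVP2-DBOX 4. The cause was not tested. The other counts of members stayed within 1.5 times in every alternative run. Of the genes given with a log2 fold change in the 4 comparisons none changed sign in a called value, and the calls that ended or appeared were those of AT1G35710, AT3G51870, PLDALPHA3, NAC084 and ATG8D given above. With 1 library left out, 152 to 175 members were higher in CALS7 than in PEAR1, and 147 to 164 were lower in CVP2-DBOX than in PEAR1. With a replicate block 162 members were higher in CALS7 than in PEAR1, 198 higher in CALS7 than in CVP2-DBOX, 194 lower in NAC57 than in CALS7, and 167 lower and 2 higher in CVP2-DBOX than in PEAR1. Libraries with the same number shared only that number, with correlations of their deviations of -0.14 to 0.13. A level of 1 CPM stands for 23.5 counts in the smallest library and 36.2 in the largest, so levels well under 1 CPM rest on few counts.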
